A study of Mus musculus with 12 samples.

Results

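Aminoacyl-tRNA synthetases are the enzymes that join each amino acid to its transfer RNA. They were followed here in muscle RNA of diabetic mice together with the scaffold proteins that hold several of them in one particle. Members were taken by gene symbol (a capital letter followed by "ars", with or without a final digit, plus Eprs1, Farsa, Farsb, Aimp1, Aimp2 and Eef1e1), which found 41 of the 22390 features of the deposited table. All 41 reached an FPKM (the count of fragments divided by transcript length and by library depth) of at least 1 in at least 3 of 12 libraries, as did 10666 features in all. They fall into 8 cytosolic synthetases of the multi-synthetase complex, 13 free cytosolic synthetases, 17 mitochondrial synthetases with symbols that end in 2, and 3 scaffold proteins. The family was taken up because Aimp2 was lower in injected mice, so every comparison with semaglutide on 1 side is a description. No p-value is given for a member there, and a call of Aimp2 there is not a test.

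All animals were male C57BL/KsJ db/db mice aged 8 weeks at the start. The db mutation removes signalling by the leptin receptor, and homozygotes grow obese and diabetic. In the combination group, mice received semaglutide, a drug that activates the GLP-1 receptor for days, and high-intensity interval training (HIIT) together for 8 weeks. The semaglutide group was injected only, the HIIT group was trained only, and the control group was reared normally, with 3 libraries in each of the 4 groups. Trained mice ran on a treadmill on 5 days per week, with 10 bouts of 4 min that reached 85 to 90% of their top speed, and the drug was given under the skin each day. The dose stands as 30 nmol/kg in the protocol and as 0.05 mg/kg in the sample titles, and the titles of trained mice give 60 min of exercise. No non-diabetic mice were among these libraries, and the labels do not describe the animal behind each library, so a p-value here reflects how far these samples spread and no more.

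Charging is the step at which the genetic code is read into amino acids: each synthetase recognises 1 amino acid and the transfer RNAs that carry it. Mammals keep separate nuclear genes for most cytosolic and mitochondrial enzymes, while Kars1 and Gars1 encode both forms. In the cytosol several synthetases assemble around Aimp1, Aimp2 and Eef1e1 (also called Aimp3). Aimp2 is the scaffold on which the complex is built, Aimp1 binds transfer RNA, and Eef1e1 is held next to the methionyl enzyme. When amino acids run short, uncharged transfer RNA activates the kinase Eif2ak4, and the transcription factor Atf4, which pairs with C/EBP proteins, switches on genes of amino acid supply and several cytosolic synthetases.

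Because Atf4 is a known regulator of cytosolic synthetases, promoters were searched for TGATGNAA, the core of the element bound by Atf4 with a C/EBP protein, on both strands (TTNCATCA on the other strand, which is the same sites read in reverse). RefSeq promoters of build GRCm38.p6, from 250 bases before to 50 bases after the gene start, were matched for 29 of the 41 members. The motif was present in 5 of these 29 (17.2%), against 4.51% of 27025 genes in the same table. It was found in 4 of 7 free cytosolic, 1 of 6 complex, 0 of 13 mitochondrial and 0 of 3 scaffold promoters. Tars1 and Aars1 are shown because they were 2 of the 3 members higher in injected mice, and Iars1, Gars1 and Yars1 because they hold the only other matches among the promoters searched. Capitals mark the match, each line gives 60 bases on the strand of the gene, and the distance is that of the first base of the match from the gene start.
Tars1, chr15:11399640-11399699, minus strand, at -15: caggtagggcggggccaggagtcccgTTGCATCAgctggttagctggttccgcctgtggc
Aars1, chr8:111033704-111033763, plus strand, at -112: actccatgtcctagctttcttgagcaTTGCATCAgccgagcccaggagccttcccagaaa
Aars1, chr8:111033812-111033871, plus strand, at 9: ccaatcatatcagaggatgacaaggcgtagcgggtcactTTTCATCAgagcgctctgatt
Iars1, chr13:49682100-49682159, plus strand, at 7: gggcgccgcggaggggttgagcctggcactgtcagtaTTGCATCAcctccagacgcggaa
Gars1, chr6:55037945-55038004, plus strand, at -30: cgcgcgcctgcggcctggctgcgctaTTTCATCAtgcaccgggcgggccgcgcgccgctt
Yars1, chr4:129189873-129189932, plus strand, at 3: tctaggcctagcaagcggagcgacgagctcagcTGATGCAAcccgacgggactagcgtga

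A match describes these letters and not a bound site. Sars1, the remaining member higher in injected mice, had a promoter in the table with no match. The 5 genes with a match did not share a direction in the RNA: the log2 fold change of injected over uninjected mice was 0.27 for Tars1, 0.19 for Aars1, 0.19 for Iars1, 0.05 for Gars1 and -0.12 for Yars1.

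The 12 libraries resembled each other in size, with summed FPKM of 533412 to 586817 and an estimated 17.2 to 21.3 M fragments. Muscle markers were high in all of them, and the fast fibre myosin Myh4 ranged from 4670 to 8900 FPKM. The protocol names soleus, a muscle in which slow fibres are abundant, as the muscle harvested. The slow fibre myosin Myh7 was far lower than Myh4, at 12.3, 5.27 and 57.2 FPKM in combination, 19.5, 9.54 and 73.1 in semaglutide, 36.2, 11.6 and 22 in HIIT and 93.2, 108 and 48.2 in control libraries. All HIIT libraries lay below all control libraries for Myh7, while both injected groups overlapped control, and the part of fibre type in the results below was not tested. Against the muscle label, 13 kept liver markers summed to 4.92 to 25.6 FPKM in combination, 4.46 to 14.7 in semaglutide, 17.3 to 424 in HIIT and 217 to 1520 in control libraries. Albumin (Alb) reached 399, 714 and 108 FPKM in control and 178 FPKM in 1 HIIT library, against 0.773 to 3.57 FPKM in the 6 injected libraries. Of the 13, 12 were called lower in injected mice, as were 5 of 7 fibroblast and 4 of 6 endothelial markers, while none of 11 muscle fibre markers was called. Of 8 white adipocyte markers 1 was called higher, and none of the macrophage, blood or nerve markers was called. Adipocyte markers still summed to 253 to 871 FPKM in combination, 291 to 519 in semaglutide, 650 to 1010 in HIIT and 286 to 931 in control libraries. Macrophage markers summed to 27.0 to 101, 23.6 to 37.1, 34.9 to 177 and 36.8 to 117 FPKM in the same order. Of 5 markers of exocrine pancreas, a tissue rich in synthetases, 4 were at 0 in every library, and the fifth, Cela1, stayed at 2.94 FPKM or less. The part of liver, fibroblast, endothelial, adipocyte and macrophage RNA in the results below was not tested beyond the values given with them. In bulk tissue, fewer cells of a type and less RNA per cell cannot be told apart.

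Of the scaffolds Aimp2 varied most, with a coefficient of variation of 30.6% over 12 libraries, and Aimp1 least, with 5.40%. Aimp2 (ENSMUSG00000029610) measured 37.8, 40.2 and 33.7 FPKM in combination, 31.4, 26.6 and 32.0 in semaglutide, 57.9, 71.5 and 59.3 in HIIT and 44.7, 41.7 and 46.5 in control libraries. The groups did not overlap, in the order HIIT, control, combination and semaglutide from high to low. The mean was 33.6 FPKM in injected and 53.6 FPKM in uninjected mice, a log2 fold change of -0.64 ± 0.08 (limma SE, 6 libraries each side, on the log2(FPKM + 1) scale used throughout).

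Aimp1 did not follow. It measured 51.3, 49.5 and 51.1 FPKM in combination, 51.0, 52.9 and 56.9 in semaglutide, 51.7, 57.1 and 50.9 in HIIT and 47.9, 52.7 and 49.0 in control libraries, and all groups overlapped. Its log2 fold change between injected and uninjected mice was 0.02 ± 0.05, with a 95% interval from -0.10 to 0.14. Eef1e1 was the lowest scaffold, at 3.37, 2.87 and 3.23 FPKM in combination, 3.01, 3.21 and 4.05 in semaglutide, 3.85, 3.33 and 4.57 in HIIT and 3.54, 4.40 and 3.14 in control libraries, again with overlap. The change of Eef1e1 was -0.16 ± 0.10.

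The ratio of Aimp2 to Aimp1 FPKM, in which the depth and scaling of a library cancel, gave the groups the same order. It was 0.738, 0.813 and 0.658 in combination, 0.616, 0.503 and 0.563 in semaglutide, 1.12, 1.25 and 1.17 in HIIT and 0.934, 0.790 and 0.948 in control libraries. The highest combination value passed the lowest control value, and every other pair of groups lay apart. Group means were 0.736 ± 0.077 in combination, 0.561 ± 0.057 in semaglutide, 1.18 ± 0.07 in HIIT and 0.891 ± 0.087 in control libraries (SD, n = 3 each).

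**Figure D1:**
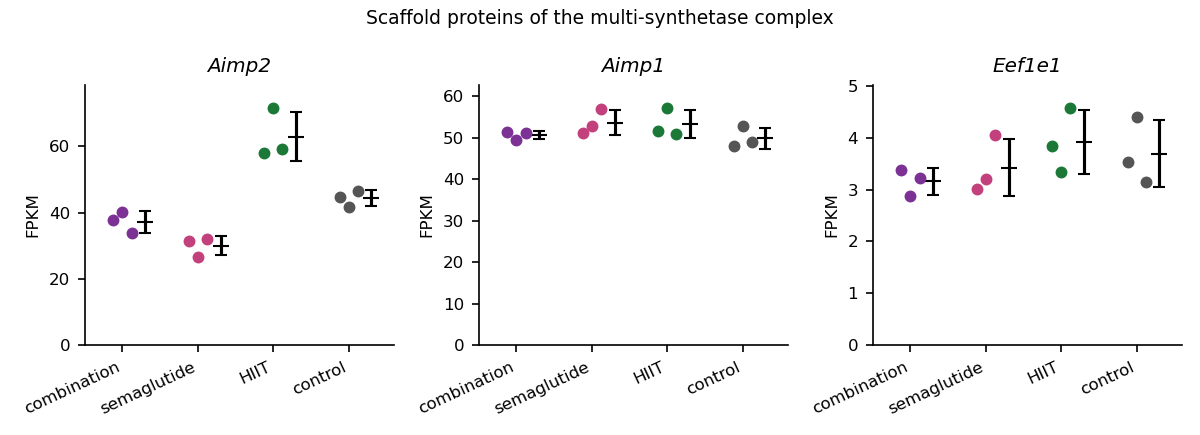
Scaffold genes of the multi-synthetase complex. The y axes give FPKM from 0, points are the 3 libraries of each group, and bars are the mean and SD; Aimp2 lies lowest in semaglutide (26.6 to 32.0) and highest in HIIT libraries (57.9 to 71.5), while the groups overlap for Aimp1 and Eef1e1.

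Training could be tested for Aimp2, since the choice of the family did not use that contrast. HIIT averaged 62.9 ± 7.5 FPKM and control 44.3 ± 2.4 FPKM (SD, n = 3 each), with all 3 HIIT libraries above all 3 control libraries. The log2 fold change was 0.49 ± 0.11, and limma's p of 0.00075 became 0.437 after Benjamini-Hochberg adjustment over 10666 genes. Combination exceeded semaglutide by 0.30 ± 0.11, again without overlap and with a limma adjusted p of 0.326. Averaged over both pairs the change with training was 0.40 ± 0.08, at a limma adjusted p of 0.252, and leaving out combination replicate 1 gave 0.0389, within a range of 0.0389 to 0.533 over 21 alternatives. So the higher level in trained mice did not pass the threshold with all libraries. The interaction of both interventions was -0.19 ± 0.15 (limma adjusted p = 0.756).

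Scaling altered the order of Aimp2 in 1 place. After trimmed mean of M values (TMM) rescaling it was 37.3, 45.8 and 38.1 FPKM in combination, 32.2, 27.4 and 31.0 in semaglutide, 52.1, 71.1 and 60.1 in HIIT and 42.9, 37.0 and 46.7 in control libraries. Combination and control then overlapped, and their difference of -0.25 ± 0.11 on the deposited scale became -0.06, while the other orders were kept. Exons of Aimp2 and of Eif2ak1, a kinase of the integrated stress response, share 487 bases on opposite strands in GENCODE M21, and whether the authors counted by strand is not given in the sources used here. Eif2ak1 stood at 19.8, 20.2 and 19.4 FPKM in combination, 18.0, 16.8 and 19.4 in semaglutide, 17.3, 18.9 and 15.9 in HIIT and 15.8, 17.8 and 17.5 in control libraries, and so did not share the pattern of Aimp2.

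Among synthetases of the complex, the lysyl enzyme Kars1 was highest and steadiest, with a mean of 51.6 FPKM over 12 libraries and a range of 48.0 to 57.1. It measured 52.9, 52.5 and 52.1 FPKM in combination, 50.1, 52.1 and 57.1 in semaglutide, 52.1, 52.7 and 48.0 in HIIT and 49.2, 50.7 and 49.3 in control libraries. The coefficient of variation of Kars1 was 4.6%, against 30.6% for Aimp2. Eprs1, the fused glutamyl and prolyl enzyme, averaged 34.7 FPKM and the glutaminyl enzyme Qars1 averaged 21.1 FPKM. Iars1, Mars1 and Rars1, for isoleucine, methionine and arginine, averaged 17.6, 17.4 and 16.8 FPKM.

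The leucyl enzyme Lars1, which also senses leucine for mTORC1, was the lowest of the complex. It measured 11.5, 11.3 and 10.3 FPKM in combination, 13.2, 11.2 and 12.4 in semaglutide, 10.1, 10.9 and 10.2 in HIIT and 9.57, 9.80 and 10.2 in control libraries. All semaglutide libraries lay above all control libraries, with a log2 fold change of 0.29 ± 0.08 that was not called. Combination over HIIT gave 0.07 ± 0.08 for Lars1, with overlap.

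Free cytosolic enzymes were led by the asparaginyl enzyme Nars1 and the seryl enzyme Sars1, with means of 40.2 and 38.2 FPKM over 12 libraries. Nars1 measured 40.9, 43.2 and 43.5 FPKM in combination, 43.4, 39.4 and 41.7 in semaglutide, 34.4, 38.4 and 35.1 in HIIT and 40.7, 42.4 and 39.1 in control libraries. HIIT was the low group for Nars1 and on the deposited scale lay below all 3 others without overlap. After TMM rescaling HIIT and control overlapped, and over 21 alternatives the log2 fold change of HIIT over control ran from -0.22 to -0.09. HIIT over control gave -0.18 ± 0.07, with an unadjusted limma p of 0.0372 and an adjusted p of 0.519, and the interaction was 0.21 ± 0.11 (limma adjusted p = 0.635). The valyl enzyme Vars1 was the lowest free cytosolic enzyme, at 8.99, 8.59 and 8.76 FPKM in combination, 8.87, 8.27 and 8.94 in semaglutide, 8.89, 7.54 and 5.75 in HIIT and 7.52, 7.77 and 7.89 in control libraries.

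With semaglutide averaged over training, 4 of 41 members were called at a limma adjusted p under 0.05 (9.76%), 3 higher and 1 lower, against 16.8% of all 10666 genes. By direction, 4.69% of all genes were called higher and 12.2% lower. The groups did not overlap for 2 members, Tars1 and Aimp2, which is 4.88% of the members beside 6.3% of all genes. The 3 members higher in injected mice were the free cytosolic Sars1, Tars1 and Aars1.

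Sars1 (ENSMUSG00000068739), which charges serine and also the selenocysteine transfer RNA, measured 44.7, 41.2 and 40.8 FPKM in combination, 42.0, 37.7 and 40.6 in semaglutide, 33.7, 38.3 and 33.9 in HIIT and 36.8, 34.6 and 34.2 in control libraries. Only semaglutide replicate 2 and HIIT replicate 2 crossed. Injected mice averaged 41.2 and uninjected mice 35.2 FPKM, a log2 fold change of 0.22 ± 0.06.

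Tars1 (ENSMUSG00000022241), the threonyl enzyme, measured 12.6, 13.6 and 12.5 FPKM in combination, 16.0, 12.2 and 15.5 in semaglutide, 11.1, 11.1 and 10.2 in HIIT and 10.7, 12.1 and 12.1 in control libraries. The 6 injected libraries lay above the 6 uninjected ones, by 12.2 against 12.1 FPKM at the nearest point, and the log2 fold change was 0.27 ± 0.07. Its paralog Tars3, also cytosolic, was at 0.05 ± 0.06.

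Aars1 (ENSMUSG00000031960), the alanyl enzyme, measured 17, 18.6 and 16.8 FPKM in combination, 18.2, 16.2 and 18.0 in semaglutide, 14.4, 16.3 and 13.8 in HIIT and 16.0, 15.5 and 15.0 in control libraries, and differed by 0.19 ± 0.06. HIIT replicate 2 passed semaglutide replicate 2, the only crossing. Exons of Aars1 share 1326 bases with Exosc6 on the same strand in GENCODE M21, where Exosc6 was listed at 0.00274 FPKM or less, so how fragments were split between both genes is uncertain.

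**Figure D2:**
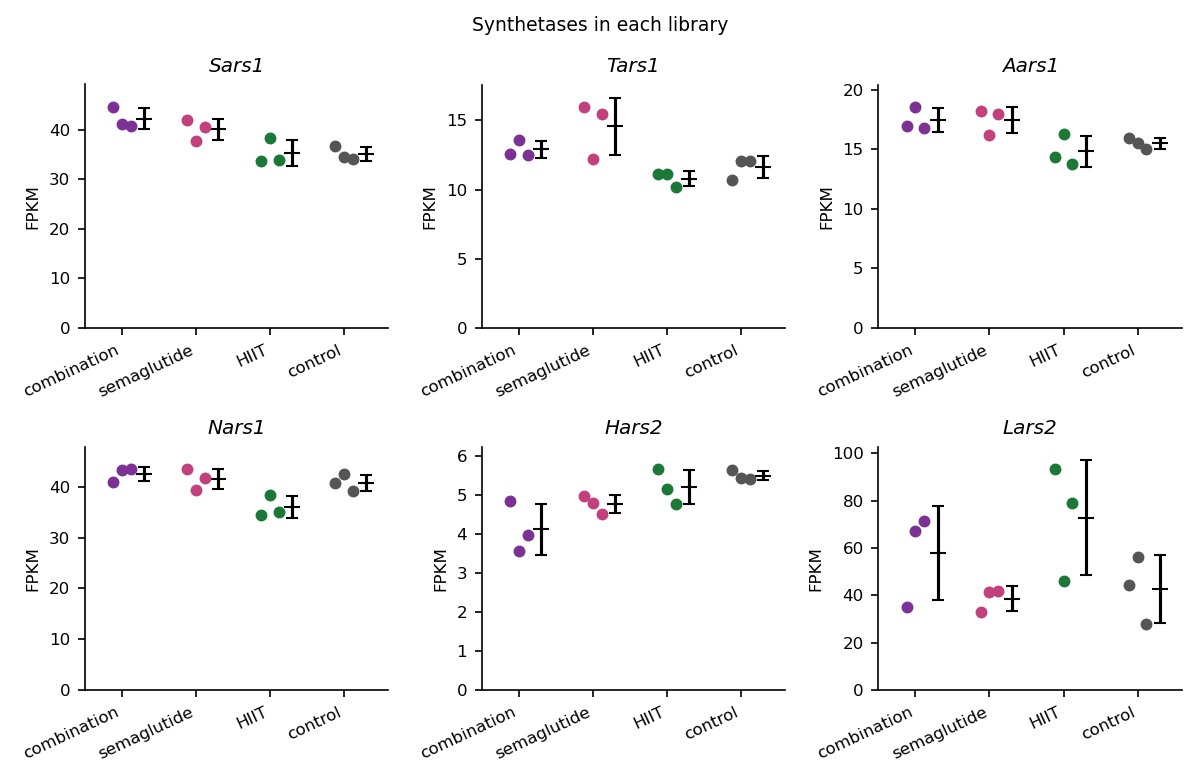
Synthetases singled out by the rule for named genes. The y axes give FPKM from 0, points are the 3 libraries of each group, and bars are the mean and SD; Sars1, Tars1 and Aars1 lie higher in combination and semaglutide, HIIT is the low group for Nars1, Hars2 is low in combination, and Lars2 spreads from 27.9 to 93.4.

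Calls of these 3 enzymes depended on single libraries. The call of Sars1 was lost when control replicate 2, HIIT replicate 1, semaglutide replicate 1 or 3, or combination replicate 2 was left out. Tars1 lost it without control replicate 1 or 2, HIIT replicate 1 or 3, semaglutide replicate 1 or 3, or combination replicate 2 or 3, and Aars1 without any 1 library other than HIIT replicate 2 or combination replicate 1. After TMM rescaling 9 of 41 members were called, 8 higher and 1 lower, beside 1152 higher and 921 lower of all 10666 genes. Ears2, Iars1, Vars1, Lars1 and Nars1 joined the 3 higher enzymes, and Aimp2 was still lower. That rescaling moved the median of all genes in this comparison to 0.02, against -0.08 on the deposited scale, and the share of called genes that were higher to 55.6%, against 27.8%. The liver score, the mean log2(FPKM + 1) of 13 liver markers, was 0.30 to 0.75 in injected and 0.74 to 5.97 in uninjected libraries. Only HIIT replicate 3 lay in the injected range, so a fit with that score cannot tell liver RNA and injection apart. With the score as a covariate no member and 14 of all genes were called. Log2 fold changes were then 0.21 for Sars1, 0.31 for Tars1, 0.23 for Aars1 and -0.73 for Aimp2. Leaving out the 3 libraries richest in liver RNA (control replicates 1 and 2 and HIIT replicate 1) left control replicate 3 alone in its group. The same 4 values were then 0.22, 0.25, 0.21 and -0.71.

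Mitochondrial enzymes were weaker, with medians of 3.69 to 5.54 FPKM per library over the 17 genes. Lars2, the mitochondrial leucyl enzyme, was the exception at a mean of 53.0 FPKM, and it was the most variable of all members. Lars2 measured 35.0, 67.2 and 71.6 FPKM in combination, 32.8, 41.5 and 41.7 in semaglutide, 93.4, 46.1 and 78.8 in HIIT and 44.2, 56.4 and 27.9 in control libraries. In both trained groups 2 libraries lay above every library of the untrained groups and 1 lay among them. Trained mice averaged 65.4 and untrained mice 40.7 FPKM, a log2 fold change of 0.63 ± 0.24 with an unadjusted limma p of 0.0230 and an adjusted p of 0.36.

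Iars2 and Rars2, for isoleucine and arginine, came next. Iars2 measured 13.2, 13.8 and 15.4 FPKM in combination, 15.7, 14.7 and 14.3 in semaglutide, 12.4, 13.7 and 11.9 in HIIT and 15.2, 14.8 and 13.8 in control libraries. On the deposited scale HIIT lay below control, by 13.7 against 13.8 FPKM at the nearest point, and the groups overlapped after TMM rescaling. The log2 fold change was -0.19 ± 0.09 (limma adjusted p = 0.554). Exons of Iars2 share 2034 bases with Rab3gap2 on the opposite strand. Rars2 measured 10.1, 8.91 and 8.57 FPKM in combination, 9.43, 10.8 and 9.61 in semaglutide, 8.12, 10.7 and 7.65 in HIIT and 8.40, 9.21 and 9.05 in control libraries. Semaglutide lay above control, by 9.43 against 9.21 FPKM at the nearest point, and every other pair of groups overlapped for Rars2.

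The mitochondrial histidyl enzyme Hars2 was the member with the lowest fold change after Aimp2 in injected mice. It measured 4.85, 3.57 and 3.97 FPKM in combination, 4.98, 4.80 and 4.53 in semaglutide, 5.68, 5.17 and 4.79 in HIIT and 5.64, 5.45 and 5.43 in control libraries. Both injected groups lay below control without overlap, by -0.35 ± 0.10 for combination and -0.17 ± 0.10 for semaglutide, and neither was called. Leaving out combination replicate 1 brought the first past the threshold. The combination value was -0.20 in the fit with the liver score and also after TMM rescaling. After rescaling Hars2 measured 5.09, 4.95 and 4.38 FPKM in semaglutide and 5.41, 4.83 and 5.47 in control libraries, which overlap. Exons of Hars2 and of Hars1, the cytosolic enzyme beside it, share 195 bases on opposite strands.

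Ears2, the mitochondrial glutamyl enzyme, measured 2.46, 2.40 and 2.75 FPKM in combination, 3.20, 2.76 and 3.24 in semaglutide, 2.29, 2.27 and 1.73 in HIIT and 2.35, 2.96 and 2.65 in control libraries. On the deposited scale trained groups lay below their untrained partners without overlap in both pairs. After TMM rescaling combination and semaglutide overlapped for Ears2. The averaged log2 fold change was -0.22 ± 0.08 (limma adjusted p = 0.350) and ran from -0.30 to -0.16 over 21 alternatives. Vars2, for valine, gave the smallest interaction p among the members. It measured 1.82, 1.44 and 1.97 FPKM in combination, 2.51, 2.48 and 1.97 in semaglutide, 2.64, 2.11 and 2.01 in HIIT and 2.33, 1.66 and 1.88 in control libraries. Its interaction was -0.41 ± 0.18, with an adjusted limma p of 0.632. Sars2, for serine, measured 6.41, 5.86 and 6.40 FPKM in combination, 5.73, 4.87 and 6.48 in semaglutide, 5.16, 5.85 and 4.69 in HIIT and 5.81, 6.14 and 5.91 in control libraries, with an interaction of 0.28 ± 0.15 (limma adjusted p = 0.652).

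The methionyl enzyme Mars2 was the lowest member and lay just inside the filter, with 6 of 12 libraries at 1 FPKM or more. It measured 0.950, 0.915 and 0.898 FPKM in combination, 1.17, 1.24 and 1.22 in semaglutide, 0.976, 1.03 and 1.06 in HIIT and 1.01, 0.931 and 0.984 in control libraries. All semaglutide libraries lay above all others, and combination over semaglutide was -0.20 ± 0.10 (limma adjusted p = 0.427). No member fell outside the filter, and the next lowest were Pars2 at a mean of 1.27 and Wars2 at 1.43 FPKM. Such values rest on fewer fragments per kb of transcript than those of the higher members. At the estimated depth 1 fragment in a transcript of 1 kb gives 0.047 to 0.0583 FPKM, and fragments per gene were not counted.

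In the remaining comparisons calls were rare. With training averaged over semaglutide 0 of 41 members were called against 0% of all genes, with 4 members (9.76%) at an unadjusted p under 0.05 beside 12.6% of all genes and no member free of overlap beside 0.375% of all genes. The interaction likewise called 0 members and 0% of all genes, with 1 member (2.44%) at an unadjusted p under 0.05 beside 7.71%. For HIIT against control 0 members and 0% of all genes were called by limma, 4 members (9.76%) were at an unadjusted p under 0.05 beside 8.93%, and 5 did not overlap (12.2%) against 11.5% of all genes. These 5 were Aimp2, higher in HIIT, and Nars1, Iars2, Ears2 and Nars2, lower in HIIT. For combination against semaglutide 0 members were called beside 0.00938% of all genes, 1 (2.44%) was at an unadjusted p under 0.05 beside 12.1%, and 5 did not overlap (12.2%) against 16.3% of all genes, with Aimp2 higher and Mars1, Mars2, Ears2 and Vars2 lower in combination.

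Semaglutide against control called 1 member (2.44%) beside 3.72% of all genes, and 11 members did not overlap (26.8%) beside 28.9%. The call was that of Aimp2, on which the family was picked. Combination against control called 0 members beside 6.26%, and 11 did not overlap (26.8%) beside 29.4%. Combination against HIIT called 1, Aimp2, beside 3.01%, and 11 did not overlap (26.8%) beside 26.2%. Sars1 and Nars1 ranked next after Aimp2 in that comparison, with log2 fold changes of 0.25 ± 0.08 and 0.24 ± 0.07, and neither was called. A fit on HIIT and combination libraries alone called 0 members, and with a replicate block 1.

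**Figure D3:**
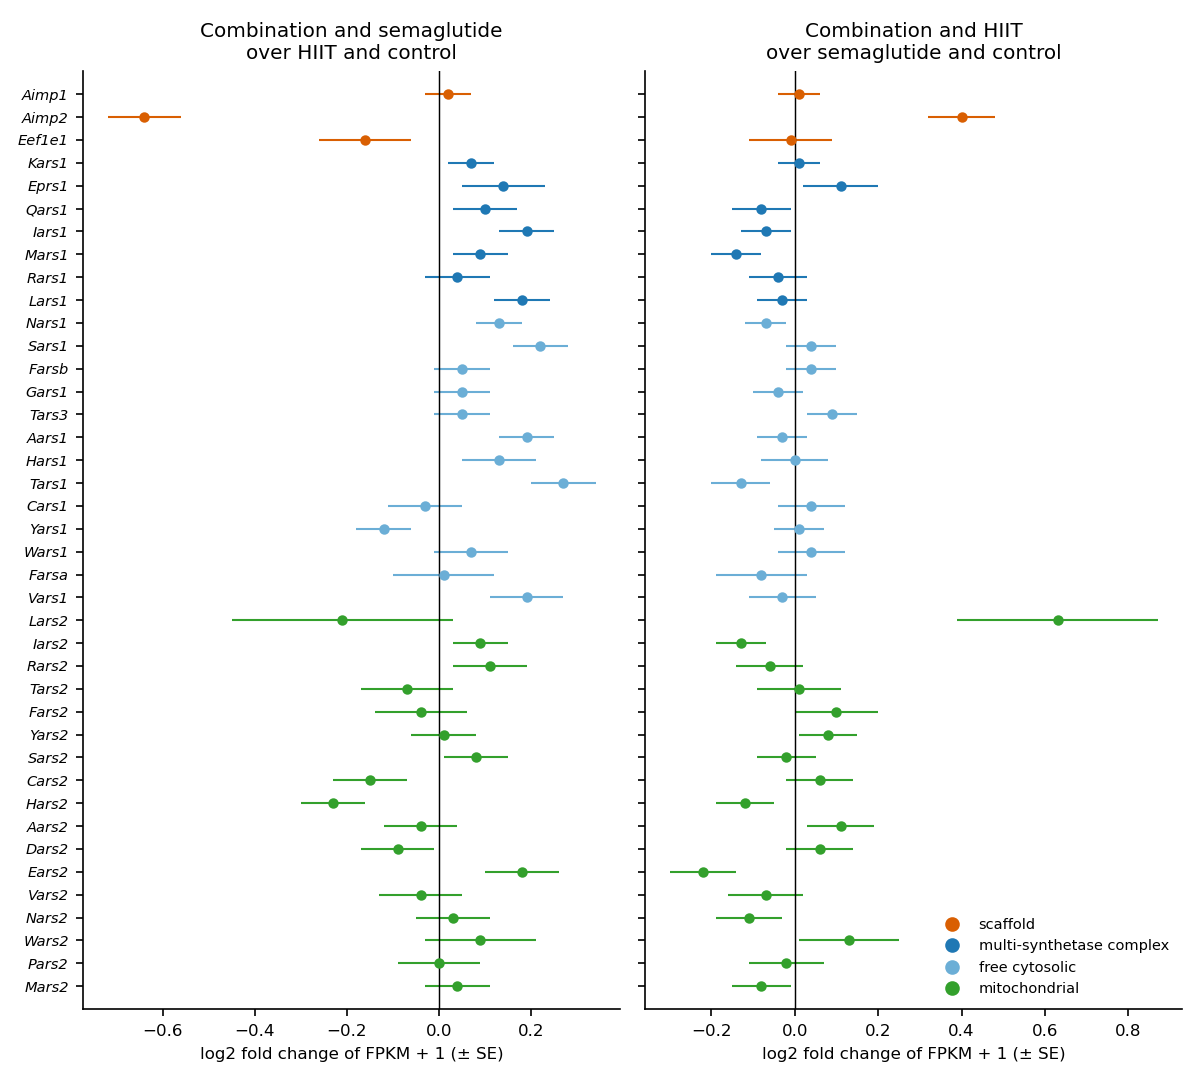
Log2 fold changes of 40 members. The x axes give the log2 fold change of FPKM + 1 with bars of 1 limma SE, rows are members grouped by class and ordered by mean FPKM; on the left the 7 complex synthetases drawn lie above 0 while Aimp2 stands at -0.64, and on the right Aimp2 (0.40) and Lars2 (0.63) lie highest.

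The enzyme classes are described by their medians and counts, and the difference between them was not tested. In injected over uninjected mice the median log2 fold change was 0.10 for complex synthetases, with 8 of 8 above 0, and 0.07 for free cytosolic ones, with 11 of 13 above 0. Mitochondrial enzymes had a median of 0, with 8 of 17 above 0, and over all genes the median was -0.08 with 34.5% above 0. After TMM rescaling the medians became 0.22 for complex, 0.18 for free cytosolic and 0.07 for mitochondrial enzymes, with 13 of 17 mitochondrial enzymes above 0, beside 0.02 for all genes. The mitochondrial direction thus depended on scaling, and 13 of 17 lay above the median of all genes under both. With the liver score as a covariate 4 of 8 complex enzymes, 10 of 13 free cytosolic and 8 of 17 mitochondrial enzymes lay above the median of all genes. With training the medians were -0.04, 0 and -0.02 for the same classes, beside -0.05 for all genes.

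Per library, the mean log2(FPKM + 1) of 21 cytosolic enzymes minus that of 17 mitochondrial enzymes is a ratio of both classes. It was 1.85, 1.84 and 1.69 in combination, 1.85, 1.72 and 1.84 in semaglutide, 1.64, 1.71 and 1.60 in HIIT and 1.64, 1.73 and 1.76 in control libraries. Means were 1.79 ± 0.09 in combination, 1.80 ± 0.07 in semaglutide, 1.65 ± 0.06 in HIIT and 1.71 ± 0.06 in control libraries (SD, n = 3 each). The injected groups were higher by 0.12 on average, which exceeds the pooled SD between libraries of 0.07, although 1 library in each injected group lay within the uninjected range. Medians over members in place of means gave 0.30 for that difference, and 0.32 against 0.08 for combination over control. Leaving Lars2 out gave 0.10, and training gave -0.04 with Lars2 and 0 without it.

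**Figure D4:**
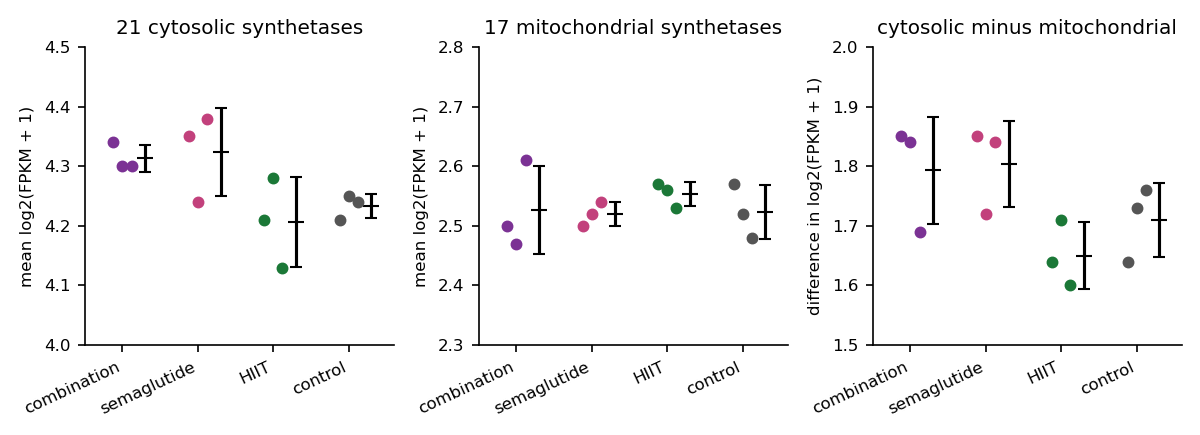
Class means per library. The y axes give the mean log2(FPKM + 1) of the cytosolic and the mitochondrial synthetases and their difference (axes do not start at 0), points are the 3 libraries of each group, and bars are the mean and SD; the difference averages 1.79 and 1.80 in combination and semaglutide, against 1.65 and 1.71 in HIIT and control libraries.

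Cytosolic enzymes summed to 458 ± 4.94 FPKM in combination, 456 ± 22.5 in semaglutide, 421 ± 21.9 in HIIT and 426 ± 5.31 in control libraries (SD, n = 3 each). Mitochondrial enzymes summed to 137 ± 19.9 FPKM in combination, 119 ± 4.39 in semaglutide, 152 ± 20.2 in HIIT and 123 ± 15.5 in control libraries. Lars2 alone made up 26.4 to 54.4% of the mitochondrial sum. Without Lars2 the other 16 enzymes summed to 79.3 ± 5.25 in combination, 80.7 ± 1.15 in semaglutide, 79.6 ± 5.19 in HIIT and 80.5 ± 3.76 FPKM in control libraries, and the ranges of mean ± SD overlapped between all groups.

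Semaglutide over control and combination over HIIT share no library, but in both the uninjected libraries had the higher liver scores. All 8 complex synthetases lay above 0 in both, as did 8 of 13 free cytosolic and 5 of 17 mitochondrial enzymes, against 21.9% of all genes. Over the whole family 70.7% of members had the same sign in both, close to the 69.9% of all genes. Pearson's r over the 41 members was 0.67 and fell to 0.46 without Aimp2, beside 0.62 over all genes; members are not independent replicates, and these values are given as a description. After TMM rescaling 8 of 8 complex, 11 of 13 free cytosolic and 9 of 17 mitochondrial enzymes lay above 0 in both, against 37.4% of all genes. With the liver score as a covariate, 4 of 8 complex enzymes lay above 0 in semaglutide over control. In combination over HIIT it was 8 of 8. Free cytosolic enzymes gave 11 of 13 in each, and mitochondrial ones 10 and 7 of 17. The medians of all genes were then 0.14 and -0.04.

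**Figure D5:**
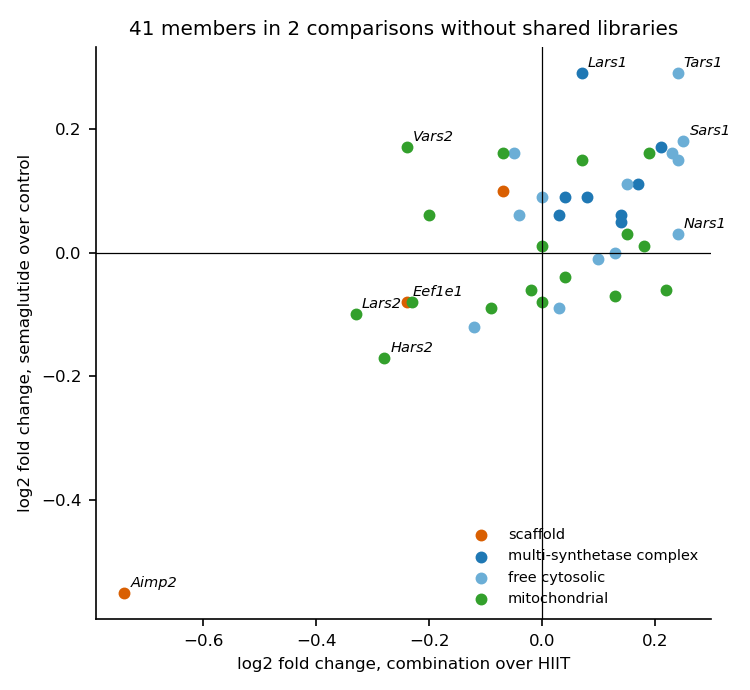
Members in 2 comparisons that share no library. The x axis gives the log2 fold change of combination over HIIT, the y axis that of semaglutide over control, and each point is 1 member coloured by class; Aimp2 lies far to the lower left (-0.74 and -0.55), and the 8 complex synthetases lie in the upper right.

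Genes that work beside the synthetases were followed in lists chosen with earlier results of these data known, in injected over uninjected mice. Beside them, 4.69% of all genes were called higher and 12.2% lower, with a median of -0.08. Since the lists were chosen that way, calls and limma adjusted p-values of listed genes are a description here and not a test. Of 12 cytosolic elongation factors, 2 were higher and none lower, with a median of 0.05. Eef2k, the kinase that inhibits elongation factor 2, rose by 0.50 ± 0.12 to a mean of 24.4 FPKM in injected mice, against 16.8 FPKM in uninjected mice (limma adjusted p = 0.0219). Its target Eef2 rose by 0.24 ± 0.07, with means of 389 FPKM in injected and 331 FPKM in uninjected mice (limma adjusted p = 0.0493). Next by p came Eef1a1, at -0.53 ± 0.18 with means of 163 FPKM in injected and 242 FPKM in uninjected mice. Abcf1 followed at 0.23 ± 0.08, and neither Eef1a1 nor Abcf1 was called. Of 23 genes of transfer RNA processing and proofreading, 2 were higher and none lower, with a median of 0.08. These were Nsun2, a transfer RNA cytosine methylase, at 0.42 ± 0.10, and Trnt1, which adds the CCA end that synthetases charge, at 0.23 ± 0.05.

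Of 16 mitochondrial translation factors 1 was lower and none higher, with a median of -0.05 that became 0.07 after TMM rescaling. It was Gatb, a subunit of the amidotransferase that makes mitochondrial glutaminyl-tRNA, at -0.23 ± 0.07, and it was no longer called after TMM rescaling. No mitochondrial glutaminyl synthetase gene is among the members.

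The list of amino acid starvation and Atf4 targets did not move as a block. Of 26 tested genes of 30 listed, 3 were higher and 4 lower, with a median of -0.13, and after TMM rescaling 7 were higher and 3 lower, with a median of -0.04. Under that rescaling 1152 of all 10666 genes were called higher and 921 lower, with a median of 0.02. The median of the list was -0.03 without the 3 libraries richest in liver RNA. It turned to 0.20 with the liver score as a covariate, where that of all genes was 0.04. Eif4ebp1, a repressor of cap-dependent translation, measured 36.2, 31.5 and 29.9 FPKM in combination, 42.9, 32.6 and 39.6 in semaglutide, 21.6, 19.5 and 21.5 in HIIT and 17.5, 20.8 and 19.9 in control libraries. The injected libraries lay above all others, with a log2 fold change of 0.78 ± 0.08 (limma adjusted p = 0.000564). Chac1, which degrades glutathione, rose by 1.24 ± 0.27 and Cebpb, a partner of Atf4, by 0.38 ± 0.08.

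Ddit3 (CHOP), a stress-induced transcription factor, was lower, at 6.44, 6.98 and 5.42 FPKM in combination, 6, 6.87 and 7.88 in semaglutide, 9.32, 9.54 and 11.8 in HIIT and 14.6, 9.65 and 8.50 in control libraries, without overlap. Its log2 fold change was -0.59 ± 0.12 (limma adjusted p = 0.0123), and its exons share 68 bases with Mars1 on the opposite strand. The serine and proline enzymes Psph and Pycr1 and the folate enzyme Mthfd2 fell by 0.37, 0.42 and 0.30, and none of these 3 was called after TMM rescaling. Atf4 itself was at 0.17 ± 0.07 and the asparagine synthetase Asns at -0.28 ± 0.13, neither of them called.

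Of 14 tested amino acid transporters of 20 listed, 1 was higher and 1 lower, with a median of -0.10 that turned to 0.02 after TMM rescaling and to 0.26 with the liver score. The taurine transporter Slc6a6 measured 20.3, 16.9 and 18.2 FPKM in combination, 16.8, 14.9 and 14.1 in semaglutide, 25, 27.1 and 25.7 in HIIT and 30.9, 30.5 and 29.1 in control libraries, with every group apart. It fell by 0.71 ± 0.06 on the log2 scale in injected mice (limma adjusted p = 0.000344). Slc43a2, a transporter of large neutral amino acids, was at 0.35 ± 0.10. That average did not reflect both pairs alike. Semaglutide libraries measured 5.05, 4.99 and 5.91 FPKM for Slc43a2 and control libraries 5.4, 6 and 4.58, which overlap. Combination libraries measured 5.4, 5.25 and 6.64 FPKM and HIIT libraries 3.83, 2.48 and 3.18. HIIT was thus the low group for Slc43a2 and lay below all others. Without the 3 libraries richest in liver RNA, Eif4ebp1, Chac1, Cebpb and Slc6a6 were still called, and the elongation, transfer RNA processing and mitochondrial lists had no call. The fold changes there were 0.42 for Eef2k, 0.27 for Eef2, 0.39 for Nsun2, 0.21 for Trnt1 and -0.29 for Gatb, each within 1 SE of its value with all libraries. With the liver score as a covariate none of the lists had a call. Fold changes were then 2.02 for Chac1, 0.81 for Eif4ebp1, -0.72 for Slc6a6, 0.45 for Eef2 and 0.47 for Nsun2. Each was at least as large as in the fit without that score. Trnt1, Psph and Mthfd2 were smaller with the score, at 0.16, -0.27 and -0.14. The score nearly coincides with injection, so these values cannot tell liver RNA and injection apart. No gene of these lists was called with training, in the interaction or between combination and semaglutide.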

How the data were processed

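Poly(A) RNA of 12 muscle samples (4 groups of 3) was sequenced as stranded paired-end libraries, per the labels' protocols. The authors deposited FPKM values. The mouse build is GRCm39 in the submitters' processing notes, which also name StringTie 2.1.4, featureCounts 2.0.1, STAR 2.7.9a and Trimmomatic 0.36. The tool behind the FPKM, its annotation release and its use of strand were not given in the sources used here, and no raw counts were used, so no count model was fitted.

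One linear model with 4 group means was fitted to log2(FPKM + 1), a pseudocount of 1, by limma 3.58.1 (R 4.3.3; empirical Bayes with trend and robust settings). It covered the 10666 genes that reached 1 FPKM in 3 or more of the 12 libraries. Fold changes are on that scale, which understates changes of low genes. Tests were two-sided, p-values were adjusted by Benjamini-Hochberg over these genes, and calls were made at 0.05. An exact permutation of 3 against 3 cannot go below p = 0.10. Depth was estimated at 17.2 to 21.3 M fragments from the smallest FPKM steps of single-transcript genes, with GENCODE M21 lengths (GRCm38). Exon overlaps come from the same annotation, promoters from RefSeq (GRCm38.p6). In that annotation 13 members share exon bases with another gene of the deposited table, 11 of them on the opposite strand only. Aimp1 (163 bases, opposite strand) and Tars3 (120 bases, same strand) are among them. TMM factors were computed from the FPKM. The script was tested on simulated data.

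Members and gene lists were chosen with earlier results of these data known. Genes given with every library are the scaffolds, the called members or the 3 of smallest p in each comparison, and the 3 highest cytosolic and mitochondrial members and the lowest of each class. Of the pathway lists, up to 4 genes of smallest p were named per comparison. Exosc6 and Eif2ak1 were named for an exon overlap, Iars1, Gars1 and Yars1 for a motif, and Tars3, Atf4, Asns, Psph, Pycr1 and Mthfd2 beside related genes, after their values were seen. Rab3gap2 was named for an exon overlap only, and its values are not given. Replicate numbers do not pair the libraries by label. Correlations of deviations between equal numbers of different groups ran from -0.23 to 0.29 over 18 pairs, so no block was used. Values of 1 member are not reported here, though it stays in the counts and class means.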

Additional observations from a re-analysis of the deposited data

How the results depend on the processing

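Alternatives to the main fit were TMM rescaling, other pseudocounts (0.1 and 0.5) and filters, plain empirical Bayes, a liver score, a replicate block and single libraries left out. Over 25 results on named members, 489 of 530 alternatives were scored the same, 34 lost a call, 5 gained one, 2 moved and 0 reversed. For Aimp2 with semaglutide on 1 side, the same meant a shift below its SD within groups, with no threshold used. Elsewhere it meant the same direction and side of the threshold, which most members met by staying uncalled. The 34 lost calls were those of Sars1, Tars1 and Aars1, in 7, 11 and 16 of 21 alternatives each. Members called with semaglutide averaged over training (4) became 9 after TMM rescaling, 0 with the liver score as a covariate, 1 without the 3 libraries richest in liver RNA, and 1 to 6 with 1 library left out. For semaglutide against control (1) the count was 0 after TMM rescaling, with the liver score and without those 3 libraries, and 0 to 1 with 1 library left out, while the fold change of Aimp2, the member called, stayed between -0.67 and -0.47. For combination against control (0) it was 1 after TMM rescaling and 0 to 1 with 1 library left out, the call being Hars2 without combination replicate 1. For combination against HIIT (1) it was 3 after TMM rescaling, 0 in a fit of these 2 groups alone with no replicate block and 1 to 2 with 1 library left out. For training averaged over semaglutide it was 0 to 1, the call being Aimp2. In each of these the cause was not tested. Of all 10666 genes, TMM rescaling called 1152 higher and 921 lower with semaglutide averaged over training. For semaglutide against control it called 267 and 305, and for combination against control 357 and 380. For combination against HIIT it called 471 higher and 222 lower. The cytosolic minus mitochondrial difference, taken from medians over members, was 0.30 with semaglutide averaged over training, 0.25 for semaglutide against control and 0.32 for combination against control, where means gave 0.12, 0.09 and 0.08.

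The labels' replicate numbers do not pair these libraries. With a replicate block over all 4 groups 3 members were called with semaglutide averaged, 1 higher (Sars1) and 2 lower (Aimp2 and Hars2), and Tars1 and Aars1 were no longer called. HIIT and combination libraries of equal number correlated at 0.29, 0.27 and 0.22, and a replicate block within these 2 groups, chosen after seeing the data, called 1 member, Aimp2. Depth limits what can be said of Mars2, Pars2 and Wars2, and Mars2 left the fit under the stricter filter.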
